A study of Mus musculus with 8 samples.

Results

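The 39 Hox genes of the deposited tables were described across the uterus and liver of ovariectomized mice. They are all rows whose symbol is Hox, a cluster letter from a to d and a number, 39 of 23282 gene rows. Hox genes encode homeodomain transcription factors that give cells their position along the head to tail axis. They lie in clusters, and the paralog group number follows the order along a cluster, with low numbers used anteriorly and high numbers posteriorly. In the female tract, Hoxa9 is known from the oviduct, Hoxa10 from the uterus, Hoxa11 from the uterus and cervix, and Hoxa13 from the upper vagina. Mouse Hoxa10 and Hoxa11 are both needed in the uterine stroma for implantation.

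All mice were females of the outbred CD-1 stock, ovariectomized at 6 weeks of age and rested for 1 week, so that every group, controls included, lacked ovaries. The groups were given both bisphenol A (BPA, a building block of plastics that binds estrogen receptors, 200 mg/kg/day) and Korean red ginseng (KRG, 1.2 g/kg/day), BPA alone, KRG alone, or neither (control), by mouth for 7 days. Each treatment has 1 uterus library and 1 liver library, 8 in all, and it is not labelled whether animals were pooled for a library or gave both tissues. Libraries were made with QuantSeq, which reads near the polyadenylated end, so that a transcript gives about 1 count whatever its length. Levels are given as CPM (counts scaled to library totals of equal size), and 4 values in a row stand for the combined, BPA, KRG and control libraries.

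Totals ran from 12372073 to 15290950 counts. The hepatocyte markers Alb, Apoa1, Ttr and Serpina1a summed to between 26810 and 28610 CPM in the 4 livers, and the smooth muscle gene Myh11 was between 362.5 and 518.7 CPM in the 4 uteri. Several libraries also held genes of other tissues. The hepatocyte markers summed to 54.6, 40.7, 1135 and 543.0 CPM in the combined, BPA, KRG and control uteri. Bladder lining markers summed to 10350, 6018, 120.3 and 423.6 CPM there, and adipocyte markers to 3420, 2991, 8742 and 2619 CPM. Skeletal muscle markers summed to 1.70, 2.85, 493.3 and 181.4 CPM in the combined, BPA, KRG and control livers, and acinar pancreas markers to 3.31, 873.4, 5.35 and 0.392 CPM. In bulk tissue, more cells of a type and more RNA per cell cannot be told apart.

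The HoxA cluster has 11 genes on the minus strand of chromosome 6, HoxB 10 genes at chr11:96194316-96368256, HoxC 9 genes at chr15:102921103-103036852 and HoxD 9 genes at chr2:74668310-74765142, the last 3 on the plus strand (GENCODE M21, mm10). RefSeq (GRCm38.p6) lists a promoter, 250 bases before to 50 after a start, for 22 members in 24 entries. The promoters below belong to 3 posterior genes that were abundant in uterus and had 0 counts in every liver, and to Hoxb4, which was present in both tissues. Capitals mark CG dinucleotides.
Hoxa10 (chr6:52240805-52241104, minus strand): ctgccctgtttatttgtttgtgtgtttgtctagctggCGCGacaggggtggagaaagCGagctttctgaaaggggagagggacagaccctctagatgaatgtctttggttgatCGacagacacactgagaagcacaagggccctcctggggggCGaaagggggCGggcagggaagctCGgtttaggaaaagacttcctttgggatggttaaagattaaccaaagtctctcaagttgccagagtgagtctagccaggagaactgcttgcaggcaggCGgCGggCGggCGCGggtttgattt
Hoxa11 (chr6:52245761-52246060, minus strand): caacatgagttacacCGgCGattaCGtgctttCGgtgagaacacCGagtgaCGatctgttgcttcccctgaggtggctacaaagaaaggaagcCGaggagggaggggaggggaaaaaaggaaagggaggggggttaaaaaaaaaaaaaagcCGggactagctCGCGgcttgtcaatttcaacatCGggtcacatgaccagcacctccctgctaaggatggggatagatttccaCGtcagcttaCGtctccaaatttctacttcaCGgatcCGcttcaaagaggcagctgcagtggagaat
Hoxd10 (chr2:74691641-74691940, plus strand): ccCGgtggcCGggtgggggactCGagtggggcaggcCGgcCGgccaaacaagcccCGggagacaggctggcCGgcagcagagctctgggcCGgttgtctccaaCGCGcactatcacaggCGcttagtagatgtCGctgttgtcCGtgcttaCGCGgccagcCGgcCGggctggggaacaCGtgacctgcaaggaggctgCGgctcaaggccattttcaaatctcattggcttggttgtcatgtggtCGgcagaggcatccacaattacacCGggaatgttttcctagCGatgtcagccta
Hoxb4 (chr11:96318017-96318316, plus strand): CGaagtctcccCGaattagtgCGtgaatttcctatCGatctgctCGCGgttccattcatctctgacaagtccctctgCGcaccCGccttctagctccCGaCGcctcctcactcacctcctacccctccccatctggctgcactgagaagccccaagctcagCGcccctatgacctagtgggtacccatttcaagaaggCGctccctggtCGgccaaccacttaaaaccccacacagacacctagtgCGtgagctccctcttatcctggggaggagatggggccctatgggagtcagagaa

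These 4 promoters hold 12, 15, 22 and 14 CG dinucleotides. Hoxa10 has another listed entry, at chr6:52234890-52235189, which is not printed and holds 21. Over the 24 member entries the median was 14.5 and the range 4 to 45, against a median of 7 and quartiles of 3 and 20 over all 32851 listed promoters. The letters CCAAT, on either strand, were in 15 of the 24 member entries and in 37.4% of all promoters. The TATAAA box was in 4 of 24 and in 13.6% of all. The letters TTTATNG, close to the site that CDX and posterior HOX proteins prefer, were in 2 of 24 (Hoxb8 and Hoxd4) and in 10.9% of all. TGATNNAT, the joint PBX and HOX site, was in 4 of 24 and in 8.85% of all. The palindromic estrogen response element was in 0 of 24 and in 0.0700% of all. In Hoxb8 the TATAAA matches at bases -199 and -110 from the start, on the minus strand, share letters with TTTATNG matches. A match describes the sequence only.

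Uterus held Hox transcripts from all 4 clusters, and liver held few. Hox genes together took 763.8, 943.5, 918.8 and 1011 CPM in the combined, BPA, KRG and control uteri, against 15.7, 10.95, 13.6 and 14.2 CPM in the livers in the same order. That is 49711 counts over the 4 uteri and 752 over the 4 livers. Members with at least 1 count numbered 34, 37, 31 and 35 in the uteri and 14, 16, 17 and 15 in the livers. In each uterus 18 members reached 10 CPM, and in no liver did any. Hoxc12 and Hoxd1 had 0 counts in all 8 libraries, which at 3 counts allows up to 0.231 CPM in the shallowest uterus and 0.2425 CPM in the shallowest liver.

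**Figure D1:**
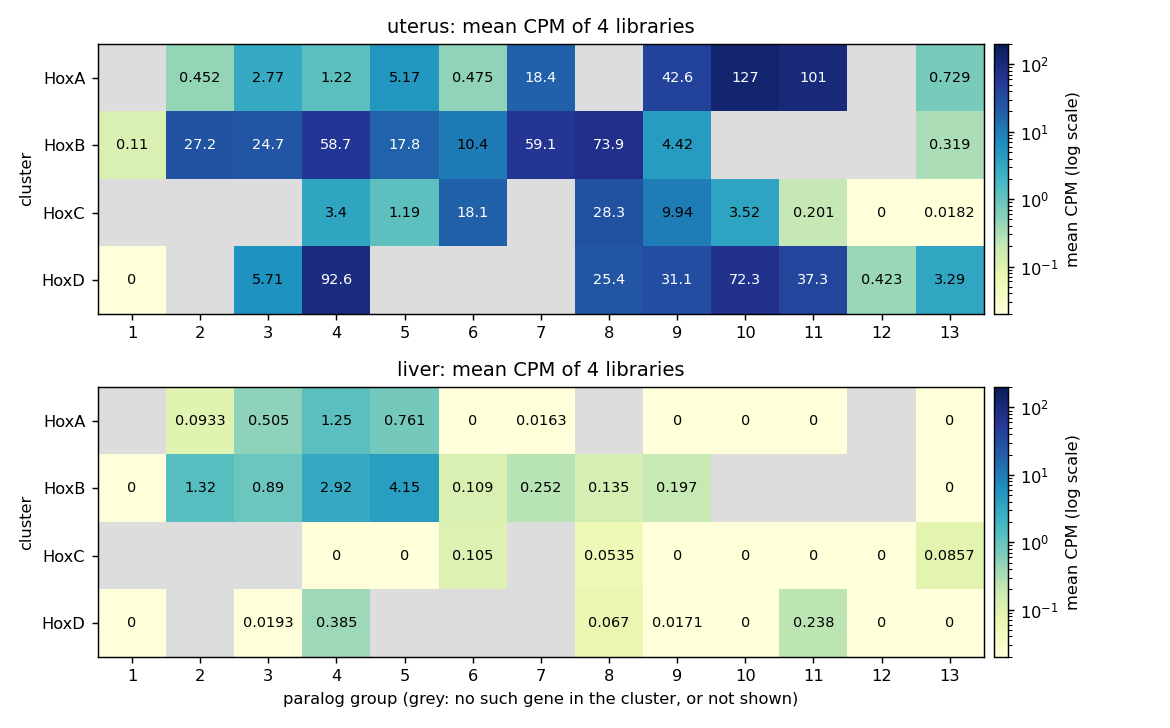
Mean CPM (log colour scale, value printed in each cell) of the Hox genes by cluster and paralog group, grey where there is no gene or none is shown, over 4 uterus libraries (top) and 4 liver libraries (bottom). The uterus grid is filled from HoxA to HoxD, led by Hoxa10 at 127 CPM, and the liver grid is filled mainly at HoxB groups 2 to 5, led by Hoxb5 at 4.15 CPM.

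The tissues differed in which clusters and positions carried the counts. HoxA held 33.05% of Hox counts in uterus, HoxB 30.5%, HoxC 7.0% and HoxD 29.45%. In liver HoxA held 20.1% (95% Clopper-Pearson interval 17.3% to 23.1%), HoxB 72.6% (69.3% to 75.8%), HoxC 1.86% (1.02% to 3.10%) and HoxD 5.45% (3.94% to 7.32%). Posterior members, groups 9 to 13, held 47.7% of Hox counts in uterus and 3.86% in liver, where they had 29 counts in all. Central members, groups 4 to 8, held 45.5% in uterus and 75% in liver. Anterior members, groups 1 to 3, held 6.79% in uterus and 21.1% in liver. Without the KRG uterus, HoxC held 4.41% in uterus, and without the KRG liver 0.362% in liver. These intervals describe counting error only, and reads that carry no molecular identifier can be copies of 1 molecule.

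Single libraries kept to their tissue on both counts. The posterior share was 45.2%, 50.45%, 43.7% and 50.7% in the combined, BPA, KRG and control uteri, and 3.09%, 7.75%, 5.53% and 0.461% in the livers. The HoxB share was 34.4%, 27.2%, 29.3% and 31.4% in those uteri, and 83.5%, 74.65%, 68.8% and 65.0% in the livers, with no overlap between tissues. The HoxC share was 5.19%, 4.28%, 15.2% and 3.89% in the uteri, so that the KRG uterus stood above the other 3.

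**Figure D2:**
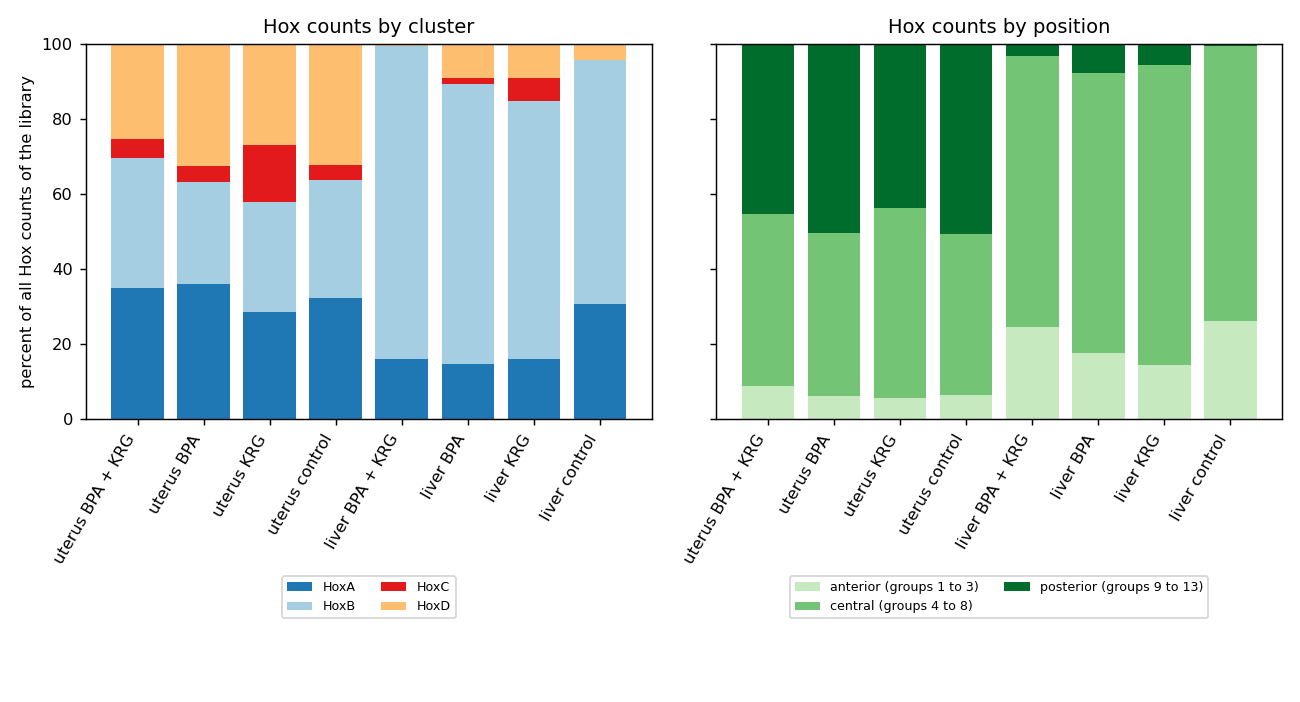
Percent of all Hox counts of each library by cluster (left) and by position (right), for the 4 uterus and 4 liver libraries, 1 bar per library. Posterior genes make up 43.7% to 50.7% of the uterus bars and at most 7.75% of the liver bars, and the HoxC segment is widest, at 15.2%, in the KRG uterus.

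The posterior HoxA genes Hoxa10 and Hoxa11 had the highest mean levels in uterus. Hoxa10 had 99.95, 124.7, 134.3 and 148.6 CPM in the combined, BPA, KRG and control uteri and 0 counts in all 4 livers, a mean of 127 ± 20.5 CPM in uterus (SD, n = 4 libraries of different treatment). Hoxa11 had 75.7, 128.0, 74.8 and 123.8 CPM in the uteri (101 ± 29.3) and 0 counts in the livers. The spreads of this pair overlap, so their order as the highest and second highest members is not separated from the variation between libraries. The spread of Hoxa11 also overlaps that of the central gene Hoxd4, at 92.58 ± 24.96 CPM. Hoxd4 (84.2 CPM), Hoxc8 (77.3 CPM) and Hoxd10 (77.1 CPM) were above Hoxa11 in the KRG uterus and below it in the other uteri. The rank of Hoxa11 above these genes is thus not separated from that variation either. Against 3 counts over the 4 livers, uterus was at least 2322-fold higher for Hoxa10 and at least 1846-fold higher for Hoxa11. These bounds, and those given below, use library totals and would be lower with TMM scaling.

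Hoxd10, the HoxD paralog of Hoxa10, had 40.6, 79.0, 77.1 and 92.5 CPM in the uteri and 0 counts in the livers, at least 1316-fold higher. Hoxa9 had 54.7, 51.2, 29.9 and 34.5 CPM in the uteri and 0 counts in the livers, at least 792-fold higher. Both genes were thus counted in every uterus and in no liver. Hoxd9 had 27.0, 26.6, 25.6 and 45.4 CPM in the uteri, highest in control, and 1 count over the 4 livers. Hoxd11, the HoxD paralog of Hoxa11, had 28.1, 43.4, 28.4 and 49.4 CPM in the uteri and 1, 6, 5 and 1 counts in the livers. Both Hoxd11 uteri with KRG were below both without it, and the uteri and livers did not overlap.

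Members of group 13, which mark the hindmost body and the lower urogenital tract, were low. Hoxd13 had 4.798, 4.08, 1.46 and 2.84 CPM in the uteri, and Hoxa13 had 0.608, 1.17, 0.770 and 0.374 CPM, both with 0 counts in liver. Hoxb13, known from prostate and hindgut, had 7 and 11 counts in the combined and BPA uteri and 0 counts in the KRG and control uteri. Hoxc13 had 1 count in the BPA uterus and 5 counts in the KRG liver, the liver with the highest skeletal muscle sum, and 0 elsewhere. Hoxd12 had 14 counts in the BPA uterus, 9 in the control uterus and 0 in the other uteri. In every uterus each member of group 13 was below Hoxa9, Hoxa10 and Hoxa11.

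Central genes held 45.9%, 43.3%, 50.7% and 42.7% of Hox counts in the combined, BPA, KRG and control uteri, more than posterior genes in the combined and KRG uteri and less in the BPA and control uteri. Without Hoxa10, central genes held 52.9% and posterior genes 39.2% over the 4 uteri. Hoxd4 had 61.9, 119.0, 84.2 and 105.2 CPM in the combined, BPA, KRG and control uteri, and 0, 0.463, 0.685 and 0.392 CPM in the livers. Hoxb8 had 66.7, 75.7, 63.7 and 89.7 CPM in the uteri and 7 counts over the 4 livers. Hoxb7 had 49.5, 42.4, 63.4 and 80.9 CPM in the uteri and 14 counts over the 4 livers. Together with Hoxa10, Hoxa11, Hoxd10 and Hoxb4, these genes made up 64.2% of uterus Hox counts. Of the members counted in every uterus, the HoxB genes of groups 4 to 6 varied least, Hoxb5 by 1.11-fold between the lowest and highest library, Hoxb6 by 1.18-fold and Hoxb4 by 1.22-fold. Hoxc8 varied most of the members that averaged 5 CPM or more, by 6.805-fold.

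**Figure D3:**
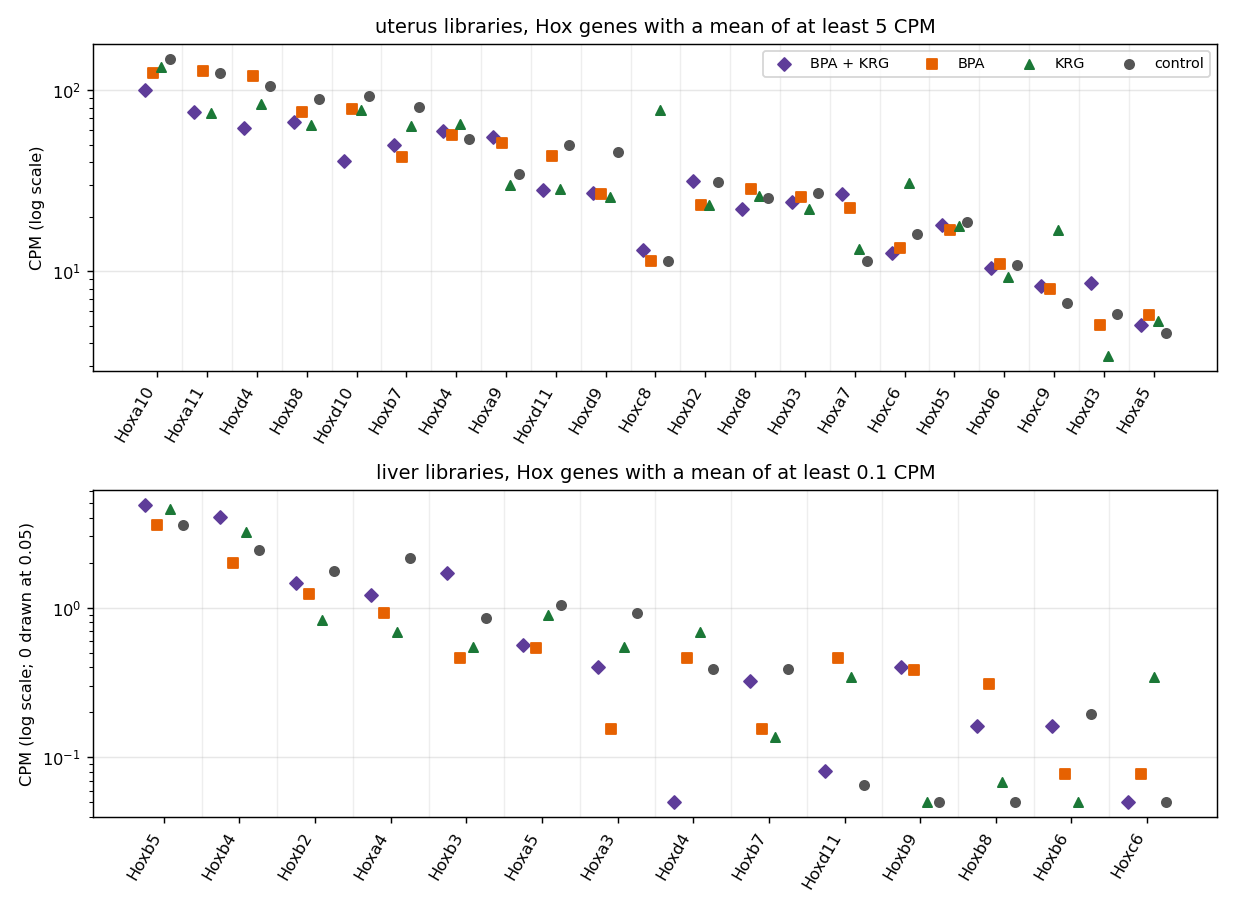
CPM (log axis) in each library of the Hox genes that average 5 CPM or more in uterus (top) and at least 0.1 CPM in liver (bottom), 1 point per library, coloured by treatment. Hoxb5 and Hoxb4 points lie close together in uterus, while the KRG point of Hoxc8 stands at 77.3 CPM against 11.4 to 13.1 CPM in the other uteri.

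Of the remaining central genes, Hoxd8 had 22.0, 28.5, 26.02 and 25.3 CPM in the uteri and Hoxb6 10.4, 11.0, 9.32 and 10.8 CPM, with little spread. Hoxa7 had 26.8, 22.4, 13.2 and 11.4 CPM, higher in both uteri with BPA. Hoxc6 had 12.6, 13.4, 30.6 and 16.0 CPM, highest in the KRG uterus. Among anterior genes, Hoxd3 had 8.58, 5.03, 3.39 and 5.83 CPM. Of the other members, Hoxa2, Hoxa6, Hoxb1 and Hoxc11 had between 6 and 27 counts over the 4 uteri, and Hoxa13, Hoxc4, Hoxc5, Hoxc10, Hoxb9 and Hoxd13 averaged under 5 CPM. Members of 1 paralog group therefore differed widely: of group 8, Hoxb8 averaged 73.9 ± 11.6 CPM and Hoxd8 at most 28.5 CPM in any uterus.

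In liver, 7 genes of groups 2 to 5 held 651 of the 752 Hox counts. Hoxb5 had 18.0, 16.8, 17.7 and 18.8 CPM in the combined, BPA, KRG and control uteri, against 4.85, 3.55, 4.59 and 3.60 CPM in the livers of the same treatments. Hoxb4 had 59.2, 56.7, 65.2 and 53.6 CPM in uterus and 4.04, 2.00, 3.22 and 2.42 CPM in liver. All uteri lay above all livers for both genes. Hoxb2, known from hindbrain patterning, had 31.6, 23.1, 23.3 and 30.9 CPM in uterus and 1.455, 1.23, 0.822 and 1.77 CPM in liver. Hoxb3 had 24.0, 25.8, 22.0 and 27.0 CPM in uterus and 1.697, 0.463, 0.548 and 0.850 CPM in liver. The HoxB genes of groups 2 to 5 were thus counted in every library of both tissues.

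Of the HoxA genes in liver, Hoxa4 had 0.811, 1.24, 2.08 and 0.747 CPM in uterus and 1.21, 0.925, 0.685 and 2.16 CPM in liver. That is 66 counts over the uteri and 70 over the livers, and the tissues overlapped. Hoxa5, known from lung and foregut, had 5.07, 5.76, 5.31 and 4.56 CPM in uterus and 0.566, 0.540, 0.891 and 1.05 CPM in liver. Hoxa3 had 2.57, 3.79, 2.69 and 2.02 CPM in uterus and 0.404, 0.154, 0.548 and 0.916 CPM in liver, and for both genes the tissues did not overlap. Hoxb9 had 5 counts in each of the combined and BPA livers and 0 in the KRG and control livers. The part that muscle or pancreas RNA in single livers had in these low counts was not tested.

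Uterus and liver were compared with edgeR's quasi-likelihood test over all 8 libraries, with treatment as a block. Of the 35 members with at least 10 counts in all, 27 were higher in uterus at an adjusted p under 0.05 (Benjamini-Hochberg over 16937 genes), 77.1% of them against 34.1% of all genes tested. None of the 35 was lower, against 25.8% of all genes, and 0 members were lower at an unadjusted p under 0.05 or by DESeq2. The median log2 difference of the tested members was 6.54, against 0.33 for all genes. Members at 0 in liver passed the count minimum through uterus alone, so neither value is independent evidence. All 4 uteri lay above all 4 livers for 29 of the 35 members (82.9%), against 58.5% of all genes tested. With library totals in place of TMM scaling, the median of all genes moved to 1.28, genes called higher and lower numbered 9925 and 2156 in place of 5776 and 4374, and 29 members were called higher and 0 lower.

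Fitted log2 differences were 1.16 ± 0.18 (SE) for Hoxb5 (adjusted p = 0.00146, edgeR) and 3.41 ± 0.18 for Hoxb4 (adjusted p = 2.15e-05). Ratios of CPM, taken from library totals without TMM scaling, were larger, at 4.32-fold (95% counting interval 3.74 to 5.01) and 20.2-fold (17.3 to 23.9). Fitted with library totals, the log2 differences were 2.11 and 4.36, so their size depends on the scaling. With TMM scaling, as for the values that follow, Hoxb2 was 3.43 ± 0.23 and Hoxb3 3.94 ± 0.33 higher on the log2 scale. Hoxa5 was 1.83 ± 0.37 higher (adjusted p = 0.00456). Hoxb8 was 8.15 ± 0.47 higher and Hoxd4 6.94 ± 0.42 higher. Within HoxB the fitted difference was thus 1.16 for Hoxb5 and 8.15 for Hoxb8, and the gap between the genes was not tested.

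Of the 8 tested members that were not called, Hoxa4 had a fitted log2 difference of -0.97 ± 0.62 (adjusted p = 0.211, edgeR) and a ratio of CPM of 0.949 (counting interval 0.667 to 1.35). With library totals its fitted log2 difference was close to 0. Hoxa3 had 1.56 ± 0.59 (adjusted p = 0.0573). Hoxa2, Hoxa6, Hoxb13, Hoxc11 and Hoxd12 were also not called and had at most 27 counts over the uteri. Hoxa13 was called at an adjusted p of 0.0377, and it lost the call without any 1 library (adjusted p between 0.0598 and 0.0887). Hoxc5 lost it without the KRG uterus (adjusted p = 0.0584), and Hoxa5 without both uteri with BPA (adjusted p = 0.0526).

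Several clusters hold genes that overlap on the opposite strand, and no source used here gives the use of strand in counting. Hoxa3 and its antisense gene Hoxaas2 had the same counts, 38, 52, 35 and 27, in the combined, BPA, KRG and control uteri, so their uterus values cannot be told apart. The last 500 exon bases of each transcript were merged per gene and set against other genes. Hoxb3os, on the opposite strand, covers all 500 such bases of Hoxb2 and 993 of 1500 of Hoxb3, and Hoxaas3 covers 500 of 1488 of Hoxa7. Hoxd11 shares 266 of 500, and Hoxd3 1080 of 1786, with a gene model on its own strand. Hoxa4 shares 255 of 500 with a gene model on the opposite strand. The annotated span of Hoxd4 (chr2:74711929-74729160) lies within that of Hoxd3 (chr2:74711927-74748442), and that of Hoxc5 (chr15:102967443-103017429) takes in Hoxc6, Hoxc8 and Hoxc9. The span of Hoxa3 (chr6:52169062-52213336) takes in Hoxa4, Hoxa5 and Hoxa6 on the same strand. Reads outside the last exons of all these genes could thus be split between them. No overlap of the last exon bases was found for Hoxa10 or Hoxa11. Hoxa11os, the antisense RNA beside Hoxa11, had 135.6, 198.1, 131.9 and 135.1 CPM in the uteri and 0 counts in the livers. Its counts differed from those of Hoxa11 in every uterus.

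Noncoding genes and neighbours of the clusters moved in both directions. Of 21 tested, 9 were higher in uterus, 4 lower and 8 not called, beside 34.1% of all genes higher and 25.8% lower. Their median log2 difference was 1.59, against 0.33 for all genes. Hottip, a noncoding RNA beside Hoxa13, averaged 0.676 ± 0.384 CPM in uterus with 0 counts in liver (adjusted p = 0.0413, edgeR). Hotair, a noncoding RNA of HoxC, averaged 0.4125 ± 0.256 CPM in uterus with 0 counts in liver (adjusted p = 0.0682). Genes at 0 in liver passed the count minimum through uterus alone, so their calls and p-values are not independent evidence. Skap2 and Hibadh, neighbours outside HoxA, were both lower in uterus, by 0.54 ± 0.15 and 3.06 ± 0.23 on the log2 scale. With library totals, 17 were higher and 1 lower, beside 58.6% and 12.7% of all genes, Hotair was called (adjusted p = 0.0374), and Skap2 turned to a log2 difference of 0.42.

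The PBX and MEIS proteins bind DNA jointly with HOX proteins. Of 8 tested cofactor genes, 6 were higher in uterus and 0 lower (34.1% and 25.8% of all genes), with a median log2 difference of 2.53. Meis2 had 129.6, 251.8, 235.9 and 281.2 CPM in the combined, BPA, KRG and control uteri, against 12.2, 7.48, 9.66 and 7.85 CPM in the livers. Meis1 averaged 107.5 ± 29.5 CPM in uterus and 3.66 ± 1.11 CPM in liver. Pbx2 averaged 90.4 ± 16.4 CPM in uterus and 42.7 ± 4.51 CPM in liver and was not called (log2 difference 0.12 ± 0.15, adjusted p = 0.527). With library totals, all 8 were called higher, as were 58.6% of all genes.

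Polycomb genes encode repressors that keep silent Hox genes silent, and trithorax genes encode their counterparts. Of 19 Polycomb genes, 11 were higher in uterus, 2 lower and 6 not called (34.1% of all genes were higher and 25.8% lower), with a median log2 difference of 0.64. Cbx6 averaged 507.3 ± 92.3 CPM in uterus and 21.5 ± 2.27 CPM in liver, and Pcgf2 47.65 ± 12.5 and 2.51 ± 0.831 CPM. Phc1 was 2.26 ± 0.18 higher on the log2 scale, and Ezh2, the histone methyltransferase, 1.78 ± 0.17 higher. Of 12 tested trithorax and boundary genes, 7 were higher, 2 lower and 3 not called, with a median of 0.75 and the same shares over all genes. Kmt2a, the methyltransferase best known for maintaining Hox expression, averaged 111.4 ± 14.5 CPM in uterus and 20.02 ± 3.001 CPM in liver. With library totals, 16 of 19 and 11 of 12 were higher and none lower, beside 58.6% and 12.7% of all genes, so the calls of lower Polycomb and trithorax genes depend on the scaling.

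Genes of Müllerian duct patterning, which shape the tract beside the Hox genes, were counted the same way. Of 27 tested, 19 were higher in uterus, 5 lower and 3 not called, with a median log2 difference of 2.73, beside 34.1% of all genes higher and 25.8% lower. With library totals 21 were higher and 3 lower, beside 58.6% and 12.7% of all genes. Msx1, a uterine homeobox gene, averaged 322.7 ± 55.2 CPM in uterus and 0.377 ± 0.0946 CPM in liver. Emx2, a homeobox gene that HOXA10 represses in the endometrium, averaged 138.0 ± 30.8 CPM in uterus and 0.0566 ± 0.0381 CPM in liver. Of 18 genes linked to HOXA10 or HOXA11 in the uterus, 9 were higher, 3 lower and 6 not called, with a median of 1.27, beside the same 34.1% and 25.8% of all genes. With library totals 12 were higher and 1 lower. Esr1, the estrogen receptor, averaged 146.3 ± 43.6 CPM in uterus and 19.6 ± 6.24 CPM in liver.

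The series asks whether ginseng changes what BPA does, and each treatment has 1 uterus library, so pairs of libraries were compared as ratios of CPM with no test. The 28 members that averaged 1 CPM or more in uterus were used, and a ratio of at least 2-fold on the log2(CPM + 1) scale was counted, a scale that understates the change of low genes. No member was 2-fold higher in BPA than in control, against 3.88% of 14166 genes, and none was lower, against 3.01%. In KRG against control, 3 members were higher (10.7%, against 2.6% of all genes) and none lower (against 2.58%). The count higher was 5 with TMM, DESeq2 size factors or a pseudocount of 0.25, against 488, 489 and 509 of 14166 genes. It was 1 with a pseudocount of 5, against 184 of 14166 genes. With a minimum of 10 CPM it was 1 of 18 members, against 199 of 9198 genes. In combined against BPA, none was higher (against 1.67%) or lower (against 3.01%). In combined against KRG, Hoxd3 and Hoxd13 were higher (7.14%, against 8.36%) and Hoxc5, Hoxc6, Hoxc8 and Hoxc10 lower (14.3%, against 5.89%). With a pseudocount of 5 these counts were 0 and 2, against 648 and 474 of 14166 genes. With a minimum of 10 CPM they were 0 and 2 of 18 members, against 638 and 427 of 9198 genes. In combined against control, Hoxa7 was higher (against 6.28%) and Hoxd10 lower (against 5.42%), each 3.57% of members. Comparisons that share a library are not independent of each other.

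The 3 members higher in the KRG uterus than in control were neighbours of the HoxC cluster. Hoxc8 had 13.1, 11.4, 77.3 and 11.4 CPM in the combined, BPA, KRG and control uteri, with the KRG library alone high. The ratio was 6.805 in KRG against control (counting interval 5.73 to 8.13), and Hoxc8 was 5.895-fold lower in combined than in KRG (5.05 to 6.91). Hoxc9 had 8.25, 7.94, 16.9 and 6.65 CPM, and Hoxc10 had 2.095, 3.57, 6.93 and 1.49 CPM. The ratio of KRG to control was 2.55 (1.98 to 3.295) for Hoxc9 and 4.64 (2.83 to 7.95) for Hoxc10. Hoxc9 was higher in both uteri with KRG than in both without, while Hoxc10 did not separate that way. For Hoxc9 the combined uterus was within counting error of BPA, with a ratio of 1.04 (0.795 to 1.36).

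Other HoxC members lay higher in the same library. Hoxc6 was 1.91-fold higher in KRG than in control by ratio of CPM (1.61 to 2.27), Hoxc5 3.09-fold (1.52 to 6.78) and Hoxc4 2.09-fold (1.37 to 3.25). Summed over the cluster, HoxC had 39.7, 40.4, 139.6 and 39.3 CPM in the combined, BPA, KRG and control uteri. The combined library, which also received KRG, was at the level of control. HoxA summed to 268.4, 339.7, 263.4 and 326.8 CPM in those uteri and HoxD to 193.1, 306.7, 246.2 and 327.1 CPM, neither highest in KRG.

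Genes of fat moved with HoxC. Adipoq, the fat hormone adiponectin, had 412.2, 297.8, 1459 and 426.1 CPM in the combined, BPA, KRG and control uteri, and Cidec, a fat droplet protein, 253.6, 197.4, 1157 and 223.1 CPM. All 4 adipocyte markers were highest in the KRG uterus, none was at 0 in any uterus, and Hoxc8 and Hoxc9 are known from white fat of mice. The part of fat in the HoxC values was not tested.

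**Figure D4:**
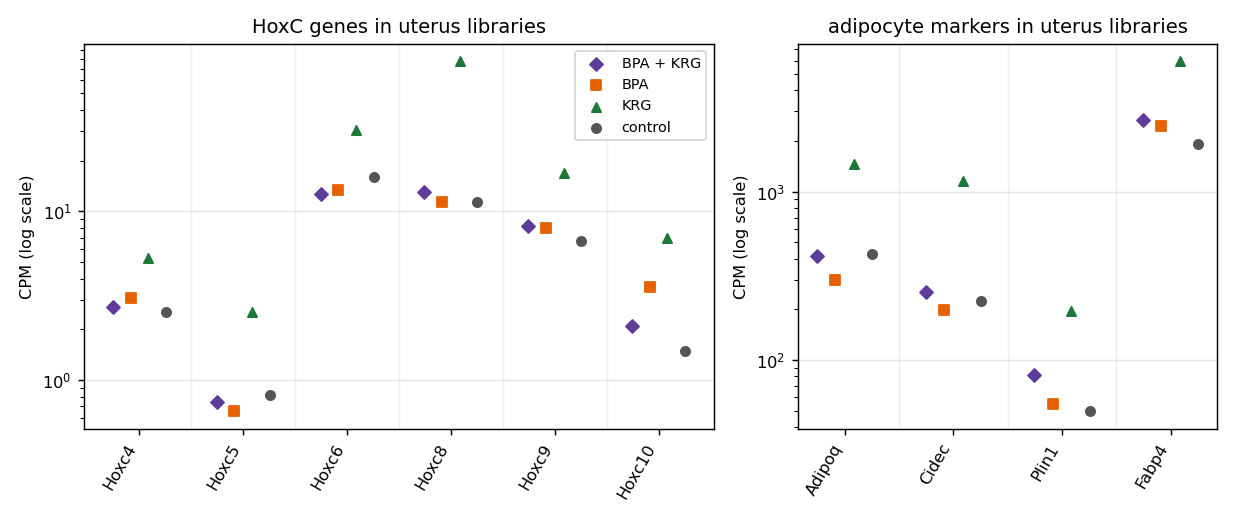
CPM (log axis) of 6 HoxC genes (left) and 4 adipocyte markers (right) in the 4 uterus libraries, 1 point per library, coloured by treatment. The KRG point is the highest for each gene on both sides, at 77.3 CPM for Hoxc8 and 1459 CPM for Adipoq.

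With BPA, Hoxa7 and Hoxa9, neighbours in HoxA, were higher in both uteri. Hoxa7 was 1.97-fold higher in BPA than in control (counting interval 1.62 to 2.41), 2.03-fold higher in combined than in KRG (1.695 to 2.45) and 2.36-fold higher in combined than in control (1.95 to 2.86). For Hoxa7, Hoxa9 and Hoxd13 both uteri with BPA were above both without, 3 of 28 members (10.7%, against 27.5% of all genes). Hoxa10, Hoxb7, Hoxb9, Hoxc5 and Hoxc6 had both below, 5 of 28 (17.9%, against 17.9% of all genes). With TMM scaling the count below was 8 of 28 members, against 3270 of 14166 genes. With a minimum of 10 CPM it was 3 of 18 members, against 1632 of 9198 genes. Hoxd13 was 3.28-fold higher in combined than in KRG (1.96 to 5.77) and Hoxd3 2.53-fold (1.79 to 3.66). Hoxc10, with 49 counts in BPA and 20 in control, was 2.39-fold higher in BPA by ratio of CPM (1.39 to 4.24), under 2-fold on the log2(CPM + 1) scale. Hoxd10 was 2.28-fold lower in combined than in control (2.06 to 2.515).

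A model with BPA and KRG as separate terms over the 4 uteri has 1 residual degree of freedom. In this model, any effect of 1 treatment that depends on the other counts as error. No member was called for BPA by edgeR, against 1.08% of genes higher and 1.28% lower, and DESeq2 also called none. At an unadjusted p under 0.05, 2 of 28 members were higher and 1 lower with BPA, against 1109 and 854 of 14166 genes. Hoxa7 had a log2 difference of 0.94 ± 0.24 with BPA (adjusted p = 0.160, edgeR), Hoxa9 0.66 ± 0.21 (adjusted p = 0.261) and Hoxb7 -0.71 ± 0.23 (adjusted p = 0.2665).

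The members higher in both uteri with BPA lay beside genes of the bladder lining. Upk3a, a uroplakin of the bladder surface, had 2688, 1279, 7.08 and 67.8 CPM in the combined, BPA, KRG and control uteri, and Upk1a 3174, 1693, 43.3 and 91.3 CPM. Of the 8 bladder markers, none was at 0 in any uterus, and Krt5, also a squamous gene, differed less, at 92.0, 88.4, 51.9 and 86.1 CPM. Markers of vagina and squamous epithelium summed to 1290, 846.9, 96.8 and 215.9 CPM, mostly from Sprr1a, at 1156, 700.8, 8.08 and 54.5 CPM. Krt14, Krt13 and Dsg3 of that list went the other way, lowest in the combined and highest in the control uterus, Krt14 with 3.38, 33.6, 29.8 and 60.6 CPM. Skeletal muscle markers summed to 1596, 209.4, 89.2 and 109.7 CPM. Hoxb13 was counted in the same 2 uteri, with 7 counts in the combined and 11 in the BPA uterus, and Hoxd13 was higher in both. Hoxa13 and Hoxd12 did not separate that way. In the combined, BPA, KRG and control uteri, Hoxa13 had 0.608, 1.17, 0.770 and 0.374 CPM and Hoxd12 had 0, 14, 0 and 9 counts. The part of bladder or lower tract tissue in the Hox values was not tested.

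**Figure D5:**
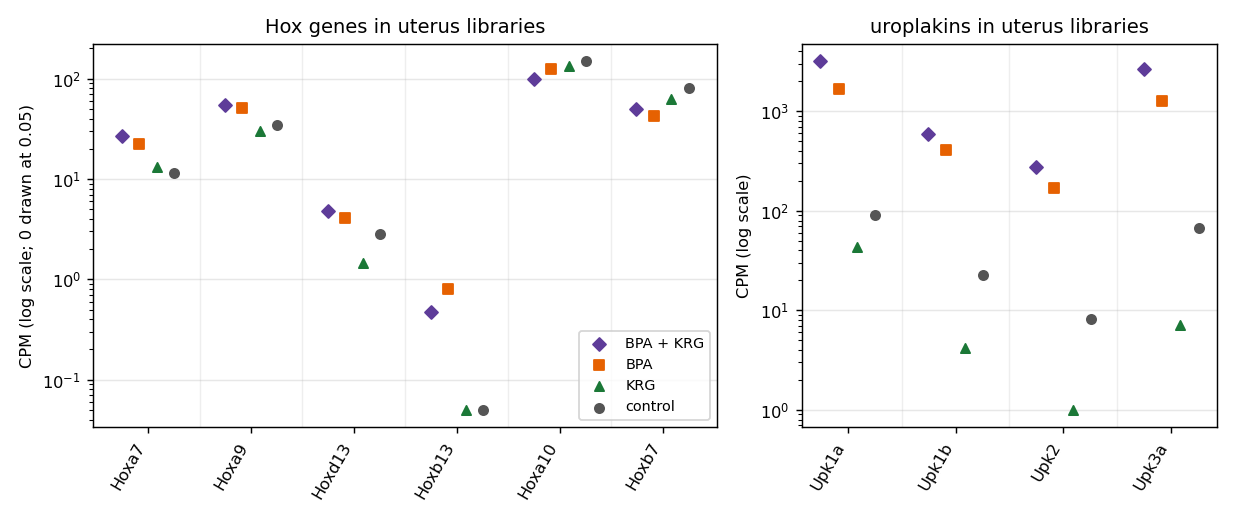
CPM (log axis, 0 drawn at 0.05) of 6 Hox genes (left) and 4 uroplakins (right) in the 4 uterus libraries, 1 point per library, coloured by treatment. Hoxa7 and Hoxa9 are higher in the combined and BPA uteri (26.8 and 22.4 CPM for Hoxa7) than in KRG and control (13.2 and 11.4 CPM), and Upk3a is 2688 and 1279 CPM against 7.08 and 67.8 CPM.

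With ginseng, 3 of 28 members (Hoxb4, Hoxc8 and Hoxc9) had both treated uteri above both untreated ones (10.7%, against 8.17% of all genes). For these 3 the ratios of combined to BPA were 1.04, 1.15 and 1.04, each with a counting interval that takes in 1. The 7 with both below (25%, against 22.0% of all genes) were Hoxa11, Hoxb3, Hoxb6, Hoxb8, Hoxd4, Hoxd10 and Hoxd11. With TMM scaling 3 of 28 members were above, against 1970 of 14166 genes. The count below was then 5, without Hoxb6 and Hoxd10, against 1987 genes, so the shares over all genes depend on the scaling. Hoxa11 had 75.7 and 74.8 CPM in the combined and KRG uteri, and 128.0 and 123.8 CPM in the BPA and control uteri. Its log2 difference in the additive fit was -0.64 ± 0.19 (adjusted p = 0.987, edgeR). No member was called for ginseng, against 0.0% of genes in each direction. A rise in the KRG uterus alone, as for Hoxc8, counts in part as error in this fit and could be missed. At an unadjusted p under 0.05, 0 of 28 members were higher and 2 lower, against 372 and 262 of 14166 genes. DESeq2 called 0 members and 12 genes higher and 13 lower. The treated and control livers held too few Hox counts for the same comparisons, and none was made.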

How the data were processed

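RNA was read from 3' ends with the QuantSeq kit in 8 libraries, per the labels' protocols. Each deposited file gives 1 library as raw counts for 23282 genes listed by symbol. Bowtie2, edgeR and mm10 are named in the submitters' processing notes. How reads were counted, with regard to strand or to several matches, is not given in these sources. Totals of 12372073 to 15290950 counts bound the precision, and 3 counts are at most 0.2425 CPM in 1 library.

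CPM was computed from library totals. Uterus and liver were compared with edgeR 4.0.16 (R 4.3.3) on counts, with TMM scaling, treatment as a block and genes with at least 10 counts over the 8 libraries. TMM factors were 1.30 to 1.47 in uterus and 0.670 to 0.766 in liver. BPA and KRG were fitted as separate terms over the 4 uteri, on genes averaging 1 CPM or more. The SE of an edgeR log2 difference was derived as its absolute value divided by the square root of the test's F statistic. Pairs of single libraries were compared as log2(CPM + 1) without a test. DESeq2 1.42.0, other scalings, filters and pseudocounts were tried as alternatives. Counting intervals are exact Clopper-Pearson intervals, which do not measure the spread between animals. The labels name no separate animals, and p-values measure the spread between these libraries, which may be technical. In the tissue fit, that spread also holds treatment effects that differ between the tissues. In the uterus fit, it also holds any effect of BPA that depends on KRG, so it is not a measure of technical or animal spread alone. The fits were tested on simulated data. The 39 members and the gene lists were chosen with earlier results of these data known. Values in every uterus are given for members with a mean of at least 5 CPM in uterus. Members with at least 1 CPM in any liver have values in every library of both tissues. Liver values of the rest are given in part, and other members were named after their values were seen. Of the other lists, the 4 most abundant members, and cofactors or regulators called at 4-fold or more, could be named, and part of them is given. Ezh2, Hibadh and Hoxaas2 fall outside that rule. Values of 1 member and 1 cofactor are not reported here.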

Additional observations from a re-analysis of the deposited data

Results flagged for a closer look

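Of 27 groups of 4 libraries checked, 3 held a library far from the other 3, with a gap to its nearest neighbour that, as a part of the whole range, passed Dixon's 95% critical value. Chance gives about 1 in 20. Hoxc8 stood at 77.3 CPM in the KRG uterus (gap 0.973 of the range), and Hoxc9 at 16.9 CPM in the same library (0.845). Hoxd9 stood at 45.4 CPM in the control uterus (0.926).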

How the results depend on the processing

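Each value comes from a single library per treatment and tissue, so no difference between treatments has a replicate error, and members with few counts are limited by depth. The count of members higher in uterus than in liver stayed within 1.5 times of 27 in all 15 alternatives. Of 35 members it was 29 with library totals, 29 without the treatment block (6497 of 16937 genes) and 28 with DESeq2 (5900 of 16937 genes). Without any 1 library it was 25 to 27 of 32 to 35 members, beside 4510 to 5195 genes of 16670 to 16865. It was 25 of 30 members without both uteri with BPA (4587 of 16274 genes). Without the control and KRG livers it was 27 of 35 (5218 of 16730 genes). Both settings were chosen after seeing the data. The count lower was 0 throughout, against 2156 to 4804 genes. Genes called higher and lower were 9925 and 2156 with library totals, against 5776 and 4374. For BPA, DESeq2 called 369 genes higher and 269 lower and no filter gave 348 and 280, against 153 and 181. Without a library the additive fits over 4 uteri have no residual degree of freedom and were not run.

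Pair counts moved with the setting. Members higher in BPA than in control numbered 1 of 28 with a pseudocount of 0.25 (779 of 14166 genes). Members higher in KRG than in control numbered 5 with TMM, with DESeq2 size factors and with a pseudocount of 0.25 (488, 489 and 509 of 14166 genes). They numbered 1 with a pseudocount of 5 (184 of 14166 genes) or at least 10 CPM (199 of 9198 genes). Combined against BPA had 1 of 37 members lower with no filter (453 of 18658 genes). Combined against KRG had 0 higher and 2 lower with a pseudocount of 5 (648 and 474 of 14166 genes) or at least 10 CPM (638 and 427 of 9198 genes). Combined against control had 0 higher with a pseudocount of 5 (514 of 14166 genes). Members below in both uteri with BPA numbered 8 with TMM (3270 of 14166 genes) and 3 at 10 CPM (1632 of 9198 genes). Those below in both uteri with KRG numbered 5 with TMM (1987 of 14166 genes). Without Hoxa10, uterus shares were 22.2% HoxA, 35.4% HoxB, 8.13% HoxC, 34.2% HoxD, 7.89% anterior, 52.9% central and 39.2% posterior. Without Hoxb5, liver shares were 28.8% HoxA, 60.7% HoxB, 7.82% HoxD, 30.3% anterior, 64.1% central and 5.53% posterior. Without the KRG library, chosen after seeing the data, HoxC was 4.41% in uterus and 0.362% in liver. The cause of these shifts was not tested.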
